A study of Homo sapiens with 6 samples.

Results

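The miR-191 and miR-425 cluster is a pair of microRNA (miRNA) genes, MIR191 and MIR425, that lie side by side in an intron of the host gene DALRD3. Each gene encodes a hairpin with a 5p and a 3p arm, so the cluster can give 4 mature miRNAs, and all 4 (hsa-miR-191-5p, hsa-miR-191-3p, hsa-miR-425-5p and hsa-miR-425-3p) were among the 832 miRNAs of the table. They were chosen by a rule on name and genomic position, which used no measured value except presence in the table. The choice was made with earlier results of these data known, however. All 4 also passed the filter applied before testing, detection in 3 or more of the 6 libraries, as did 517 miRNAs in total.

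The data were small RNA sequencing of extracellular vesicles (EVs), the membrane-bound particles that cells release, from MDA-MB-231, a line established from a human breast cancer that lacks hormone receptors and HER2. Vesicles of cells with the WT genotype (231 EV, n = 3 libraries) were compared with vesicles of cells with the genotype ACO1 knockdown (231/ACO1 KD EV, n = 3 libraries). ACO1 is the cytosolic aconitase, which binds iron-responsive elements of mRNAs when it lacks its iron-sulphur cluster, and the question was which miRNAs differed in vesicles when it was reduced. Both groups were of the same line, grown with fetal bovine serum, then moved to EV-free medium from which vesicles were pelleted by ultracentrifugation. How the knockdown was made, and whether its cells were 1 clone, is not given in the labels, and the ACO1 mRNA was not measured by this assay. Nothing in the labels says that the replicates came from separate cultures, so the spread behind the p-values is that between these libraries, which may be technical.

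A miRNA gene is transcribed into a long primary transcript, from which Drosha cuts the hairpin and Dicer the short duplex. Usually 1 strand of the duplex is kept by an Argonaute protein and the other is degraded, so that the arms of 1 hairpin differ greatly in abundance although they are made in equal number. Neighbouring hairpins on 1 primary transcript are likewise made together, and differences between their mature products arise after transcription. The bases next to the 5′ end of the mature miRNA, the seed, pair with target mRNAs. The miR-191 and miR-425 cluster is widely expressed and has been studied in breast cancer, where oestrogen receptor signalling raises its transcription, and miR-191-5p is often used as a reference miRNA in RT-qPCR.

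In the GRCh38 annotation, both genes are on the minus strand of chromosome 3. MIR191 (ENSG00000207605.3) spans chr3:49020618-49020709 and MIR425 (ENSG00000199032.1) spans chr3:49020148-49020234, with 383 bases between the hairpins. MIR191 is the upstream gene in the direction of transcription. Both lie in intron 1 of the 12-exon DALRD3 transcript ENST00000313778.9 (intron chr3:49018319-49020845), and neither overlaps an exon or UTR of DALRD3 (ENSG00000178149.16), which encodes a partner of a tRNA methyltransferase. MIR191 also lies opposite intron 1 of the NDUFAF3 transcript ENST00000326912.8, on the plus strand, a gene for an assembly factor of mitochondrial complex I.

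The hairpins show how the arms sit on each precursor. They are given 5′ to 3′ from RefSeq (GRCh38.p14), in lower case. In MIR191 the capitals mark the 5p arm and then the 3p arm, and in MIR425 they mark the 3p arm.
MIR191: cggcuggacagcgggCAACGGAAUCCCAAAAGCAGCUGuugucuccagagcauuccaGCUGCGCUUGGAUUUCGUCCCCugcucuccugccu
MIR425: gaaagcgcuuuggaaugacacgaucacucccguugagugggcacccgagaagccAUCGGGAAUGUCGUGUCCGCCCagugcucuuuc

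Of the 4 mature miRNAs, 3 were matched in the RefSeq table, and hsa-miR-425-5p was not. The matched sequences are shown because the seeds, bases 2 to 8 and here in capitals, tell whether the arms would share targets.
hsa-miR-191-5p: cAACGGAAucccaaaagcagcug
hsa-miR-191-3p: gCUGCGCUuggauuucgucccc
hsa-miR-425-3p: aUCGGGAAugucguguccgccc

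The 3 seeds differed from each other, and none was shared with another mature miRNA among the 2370 names of the RefSeq table, while bases 2 to 7 of miR-425-3p were shared with 1 other. Mature miR-191-5p was 23 bases long (chr3:49020672-49020694) and both 3p arms were 22 bases long (chr3:49020631-49020652 for miR-191-3p and chr3:49020159-49020180 for miR-425-3p). The letters CAUUG and the longer CAUUGC, which contains CAUUG and was linked to ACO1 by the study, were searched on the mature strand only. Neither was in any of the 3 sequences, and they were in 2.94% and 0.979% of the 715 table miRNAs with a RefSeq sequence. The short letters GGAG, CCCU and GGCU, which have been linked to vesicle loading, were likewise not found in the 3, and were in 11.7%, 10.5% and 12.3% of the 715.

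Library totals were between 224948 and 230562 counts in 231 EV and 67873, 157322 and 175924 counts in 231/ACO1 KD EV, replicate 2 being the shallowest. TPM as deposited was each miRNA's share of the library's counts, scaled to a common total with no length term, so 1 count was worth between 4.34 and 14.7 TPM. Among the 231/ACO1 KD EV libraries, replicate 3 was the most like 231 EV. Over the 128 miRNAs of mean count at least 50, it was the one closest to the 231 EV mean for 69, against 22 for replicate 1 and 37 for replicate 2. Over the same miRNAs it correlated best with knockdown replicate 1 (Pearson's r across miRNAs, 0.976, against 0.892 to 0.936 with 231 EV). Its r with knockdown replicate 2, 0.934, was within the range of those with 231 EV. The share of the library on miR-21-5p, the most abundant miRNA of the line, was between 28.5% and 31.2% in 231 EV and was 12.2%, 11.7% and 18.4% in 231/ACO1 KD EV replicates 1, 2 and 3. Results that turn on replicate 3 are given with and without it. The 4 miRNAs listed as marks of MDA-MB-231 (miR-21-5p, miR-221-3p, miR-222-3p and miR-100-5p) were abundant in every library. The 6 epithelial markers of the miR-200 family and miR-205-5p summed to between 619 and 992 TPM, although the label calls the line an epithelial cell.

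The 4 mature miRNAs covered a wide range of levels. By mean TPM over the 6 libraries, miR-191-5p ranked 14 of 832, miR-425-5p ranked 32, miR-425-3p ranked 120 and miR-191-3p ranked 247. Within single libraries miR-191-5p ranked between 11 and 16, and miR-425-5p between 23 and 28 in 231 EV and between 30 and 48 in 231/ACO1 KD EV. miR-425-3p ranked between 105 and 122, and miR-191-3p between 201 and 342. The order miR-191-5p, miR-425-5p, miR-425-3p, miR-191-3p was the same in all 6 libraries, and the intervals of counting error of these 4 did not overlap within a library. Intervals of TPM, shares and ratios are 95% Wilson intervals and cover counting error only. PCR copies are not independent molecules, so these may be too narrow even for that. The 95% intervals of log2 fold changes come instead from the SE of the edgeR fit.

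**Figure D1:**
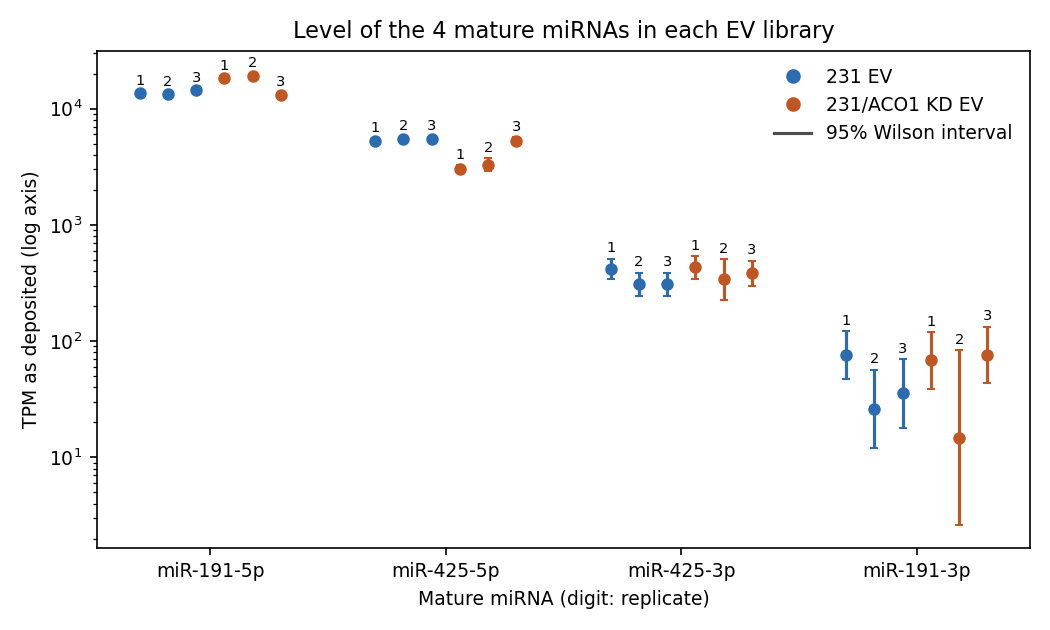
Deposited TPM (log axis) of the 4 mature miRNAs in each library, with 231 EV in blue, 231/ACO1 KD EV in orange, the replicate number above each point and bars for the 95% Wilson interval. miR-191-5p lies above miR-425-5p, and both 5p arms above both 3p arms, in all 6 libraries, while miR-425-5p is low in 231/ACO1 KD EV replicates 1 and 2.

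miR-191-5p is the main product of MIR191. The 231 EV libraries held 3068, 3098 and 3247 counts of it, and the 231/ACO1 KD EV libraries 3242, 1293 and 2079. These were 13639, 13437 and 14431 TPM (mean 13835 ± 525, SD, n = 3) against 18428, 19050 and 13215 TPM (mean 16898 ± 3205, SD, n = 3). On this scale replicates 1 and 2 of the knockdown were above every 231 EV library and replicate 3 was below all of them, so the groups overlapped.

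Scaled by TMM, which sets libraries so that most miRNAs do not change, miR-191-5p was 14907, 14968 and 17176 CPM in 231 EV and 16627, 15907 and 12104 CPM in 231/ACO1 KD EV. The log2 fold change, 231/ACO1 KD EV against 231 EV, was -0.08 (SE 0.13, 95% interval -0.34 to 0.19) and did not pass the test of edgeR's quasi-likelihood fit (adjusted p = 0.811). With library totals in place of TMM it was 0.29 (adjusted p = 0.142). With TMM and without knockdown replicate 3 it was 0.06 (adjusted p = 0.805). The sign of the miR-191-5p difference thus depended on the scaling and on that library, and the scaling also moved the median of all miRNAs tested from -0.03 to 0.32. Relative to that median, miR-191-5p was slightly low on both scales with all 6 libraries.

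miR-425-5p, the main product of MIR425, was the one member past the threshold. It had 1177, 1254 and 1220 counts in the 231 EV libraries, and 530, 224 and 836 counts in those of 231/ACO1 KD EV. In TPM these were 5232, 5439 and 5422 (mean 5364 ± 115, SD, n = 3) against 3013, 3300 and 5314 (mean 3876 ± 1254, SD, n = 3). The 231 EV libraries lay within a narrow band, knockdown replicates 1 and 2 were clearly below it, and replicate 3 was inside it.

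After TMM scaling, miR-425-5p was 5719, 6059 and 6453 CPM in 231 EV and 2718, 2756 and 4867 CPM in 231/ACO1 KD EV, with no overlap between groups. The log2 fold change was -0.81 (SE 0.16, 95% interval -1.12 to -0.51, adjusted p = 7.04e-06, edgeR), so that its level was 43.1% lower. With library totals it was -0.47 (adjusted p = 0.0245), and without knockdown replicate 3 it was -1.14 (adjusted p = 6.63e-10). The call was lost in limma on log2(TPM + 0.1), at -0.52 (adjusted p = 0.0509). The exact two-sided permutation test of log2(TPM + 1), without TMM scaling and with overlapping groups, gave p = 0.2, where 0.1 is the smallest that 3 libraries against 3 can give. The edgeR SE and p-value took their spread from all miRNAs tested. As SD over mean of TMM-scaled CPM, miR-425-5p itself varied by 6.05% in 231 EV and 35.7% in 231/ACO1 KD EV.

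Read against the whole table, edgeR with TMM called 44 of 517 miRNAs (8.51%), of which 31 were lower in 231/ACO1 KD EV, and 1 of the 4 members was called. With library totals, 71 (13.7%) were called, of which 13 were lower, again with miR-425-5p as the one member. Groups that did not overlap were found for 28.4% of the 517 miRNAs on the deposited TPM, where no member was among them, and for 24.4% on TMM-scaled CPM, where miR-425-5p was.

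miR-425-3p is the lesser arm of MIR425. It had 94, 71 and 69 counts in the 231 EV libraries and 76, 23 and 60 counts after the knockdown, which were 418, 308 and 307 TPM against 432, 339 and 381 TPM. The values of the groups overlapped, and the intervals of all 6 libraries overlapped. The log2 fold change was -0.17 (SE 0.26, adjusted p = 0.799, edgeR) and 0.17 with library totals, and its 95% interval under TMM, -0.68 to 0.34, left room for a change in either direction.

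miR-191-3p, the lesser arm of MIR191, was near the limit of detection. The 231 EV libraries held 17, 6 and 8 counts of it, and the 231/ACO1 KD EV libraries 12, 1 and 12. The single count in knockdown replicate 2 was 14.7 TPM, below the 44.2 TPM that 3 counts were worth there. The log2 fold change was 0.06 (SE 0.53, 95% interval -0.98 to 1.10, adjusted p = 0.973, edgeR), an interval too wide to detect changes of moderate size at this depth.

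Both 5p arms come from 1 primary transcript, and their ratio within a library does not depend on how libraries are scaled. There were 2.61, 2.47 and 2.66 reads of miR-191-5p for each read of miR-425-5p in 231 EV against 6.12, 5.77 and 2.49 in 231/ACO1 KD EV. The 231 EV libraries differed by no more than counting error, for their intervals (2.44 to 2.79, 2.31 to 2.64 and 2.49 to 2.84) all overlapped. Knockdown replicates 1 and 2 (intervals 5.58 to 6.71 and 5.01 to 6.65) also overlapped each other and were far above that band, while replicate 3 (2.29 to 2.70) was inside it.

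The log2 ratio was 1.37 ± 0.06 in 231 EV and 2.15 ± 0.73 in 231/ACO1 KD EV (SD, n = 3 each), a difference of 0.79. The exact two-sided permutation test gave p = 0.3, or 0.533 after Benjamini-Hochberg adjustment over 4 permutation tests. Those were of this ratio, the 5p to 3p arm ratio of each hairpin and the cluster's share of the library. The p-values of other permutation tests are unadjusted. With 3 libraries against 3 the exact test cannot go below 0.1, so it could not have passed the threshold at any size of difference. Without knockdown replicate 3 the difference was 1.20, a 2.30-fold higher ratio, and the exact test gave 0.2, the smallest p that 3 libraries against 2 allow. The groups then did not overlap, since the library removed was the one that overlapped. Without knockdown replicate 1 or 2 instead, the difference was 0.554 or 0.597. That miR-425-5p passed the edgeR threshold and miR-191-5p did not is not by itself a test that they differed, and this number of libraries leaves the ratio as a description.

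The cluster as a whole took between 1.90% and 2.27% of each library. The 4 members summed to 1.94%, 1.92% and 2.02% of the counts in 231 EV and to 2.19%, 2.27% and 1.90% in 231/ACO1 KD EV. Their mean was 0.16 percentage points higher in 231/ACO1 KD EV (exact two-sided permutation p = 0.4, adjusted p = 0.533 over the same 4 tests), and the difference was -0.33 points when miR-21-5p was left out of the library totals and 0.27 points without knockdown replicate 3. Knockdown replicates 1 and 2 (intervals 2.127% to 2.264% and 2.161% to 2.385%) were above every 231 EV interval, of which the highest ended at 2.078%. The division within the cluster also varied, in the same libraries. miR-191-5p held 70.4%, 70.0% and 71.5% of the cluster's reads in 231 EV against 84.0%, 83.9% and 69.6% in 231/ACO1 KD EV. miR-425-5p held 27.02%, 28.3% and 26.8% against 13.7%, 14.5% and 28.0%.

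The arms of MIR425 were compared in the same way. There were 12.5, 17.7 and 17.7 reads of miR-425-5p for each read of miR-425-3p in 231 EV against 6.97, 9.74 and 13.9 in 231/ACO1 KD EV. The 3p arm thus made up 7.40%, 5.36% and 5.35% of the MIR425 reads against 12.5%, 9.31% and 6.70%. All but knockdown replicate 3 kept to their group's side, and that library lay between 231 EV replicate 1 and the other two.

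The log2 arm ratio of miR-425 was 3.97 ± 0.28 in 231 EV and 3.28 ± 0.50 in 231/ACO1 KD EV (SD, n = 3 each), a difference of -0.69 (exact two-sided permutation p = 0.2, adjusted p = 0.533). Without knockdown replicate 3, the one that overlapped, the difference was -0.94 and the groups did not overlap. Without knockdown replicate 1 or 2 instead, it was -0.446 or -0.677. Among the 125 hairpins with both arms tested, the groups did not overlap for 24 (19.2%), MIR425 not being one of them, and 63 had a larger difference in size than MIR425. Many of these hairpins had few reads of the lesser arm. In a comparison chosen after seeing the data, 12 of the 38 hairpins with a mean count of at least 10 for the lesser arm had a larger difference than MIR425, and so did 2 of the 12 with at least 50, the hairpins of miR-21 (-1.14) and miR-100 (-0.92).

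For MIR191 the 5p arm outweighed the 3p arm by 180, 516 and 406 reads to 1 in 231 EV and by 270, 1293 and 173 reads to 1 in 231/ACO1 KD EV. The value of 1293 rests on a single 3p read and its interval runs from 228 to 7329. The log2 arm ratio was 8.31 ± 0.76 against 8.38 ± 1.23 (SD, n = 3 each), a difference of 0.07 (exact two-sided permutation p = 1). The 5p arm was thus the main product of both hairpins in every library, and the imbalance was larger for MIR191 than for MIR425 throughout.

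Set crosswise, the ratio of miR-191-5p to miR-425-3p was measured with fewer reads than that of the 5p arms. On the log2 scale it varied less than that ratio between knockdown libraries (SD 0.34 against 0.73). Between 231 EV libraries it varied more (SD 0.28 against 0.06). There were 32.6, 43.6 and 47.1 reads of miR-191-5p for each of miR-425-3p in 231 EV against 42.7, 56.2 and 34.7 in 231/ACO1 KD EV. The log2 means, 5.33 ± 0.28 and 5.43 ± 0.34 (SD, n = 3 each), differed by 0.10 (0.26 without knockdown replicate 3), and the groups overlapped in both cases.

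Partners of other clusters gave a measure of how far such ratios moved in general. Of 10 listed pairs of miRNAs, 9 had a mean count of at least 10 for both partners. Their differences in log2 ratio had a median size of 0.27, and the groups did not overlap for 3 of the 9. The lowest was -0.66, for miR-23a-3p against miR-27a-3p, where all knockdown libraries were below the 231 EV mean (differences of -0.89, -0.79 and -0.30). The highest was 0.42, for miR-17-5p against miR-20a-5p of the miR-17-92 cluster, and came mostly from knockdown replicate 2 (0.19, 1.00 and 0.07). The mean difference of 0.79 for miR-191-5p against miR-425-5p was larger in size than any of the 9, with values of 1.25, 1.16 and -0.05 in the knockdown replicates. Its groups overlapped, however. A single library moved nearly as far in another pair, miR-143-3p against miR-145-5p (-0.11, -0.21 and 1.14).

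miRNAs commonly used as references in RT-qPCR showed how far abundant miRNAs moved beside miR-191-5p. All 12 of the list were tested. Of these, 2 were lower and none was higher by edgeR with TMM, and the median log2 fold change was -0.14, beside -0.03 over all 517. The lower ones were miR-103a-3p, at -0.45 (SE 0.13, adjusted p = 0.0118), and miR-23a-3p, at -0.51 (SE 0.14, adjusted p = 0.00521). The most abundant of the list, miR-16-5p and let-7i-5p, gave -0.04 and 0.06 and did not pass (adjusted p = 0.914 and 0.882). With library totals none of the 12 was lower and 3 were higher, with a median of 0.22 beside 0.32 over all miRNAs, and miR-191-5p at 0.29 was in the same range.

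The miRNAs next to the members in the order of mean TPM over all 6 libraries were not next to them within each group. miR-221-3p stood directly above miR-191-5p in that order, but was above it in 231 EV (18200 ± 966 against 13835 ± 525 TPM, SD, n = 3) and had a lower mean in 231/ACO1 KD EV (12736 ± 3930 against 16898 ± 3205 TPM), where the values overlapped. miR-30a-5p, directly below miR-191-5p, was above it in all 231 EV libraries (15178 ± 288 TPM). Around miR-425-5p, miR-101-3p and let-7e-5p were both below it in every 231 EV library (4368 ± 673 and 3444 ± 89 against 5364 ± 115 TPM) and had higher means in 231/ACO1 KD EV (5025 ± 569 and 5484 ± 496 against 3876 ± 1254 TPM), with overlap. miR-132-3p and miR-127-3p enclosed miR-425-3p, and miR-29b-1-5p and miR-576-5p enclosed miR-191-3p. Of these 8 neighbours, 6 differed from their member by more than the larger of the SDs in 231 EV and 3 did so in 231/ACO1 KD EV, and neither neighbour of miR-191-3p did in either group.

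The 5 miRNAs of most similar pattern were different for each 5p arm. Likeness was measured as Pearson's r of log2 TMM-scaled CPM over the 6 libraries, against 123 other miRBase-named miRNAs of mean count at least 50, and is given as a description, since the 6 libraries come from 2 groups and share their scaling. The miRNAs most like miR-191-5p were miR-93-5p (r = 0.950), miR-99b-5p (0.940), the liver miRNA miR-122-5p (0.906), miR-16-5p (0.896) and miR-182-5p (0.887). Without 231 EV replicate 3 and knockdown replicate 3, the libraries farthest from the median of miR-191-5p, r was 0.820, 0.973, 0.729, 0.785 and 0.420 in the same order, so the likeness of miR-182-5p rested on those libraries. None of these passed the test between groups, and their log2 fold changes were between -0.18 and 0.03. Their choice by likeness to miR-191-5p over the same libraries favoured such small changes.

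Those most like miR-425-5p were miR-22-3p (r = 0.996), miR-221-3p (0.995), miR-23a-3p (0.995), miR-32-5p (0.992) and miR-100-5p (0.991). These were picked for following miR-425-5p over the same 6 libraries, so lower levels in 231/ACO1 KD EV were largely built into the choice. By edgeR, 4 were called lower, beside 8.51% of all 517 miRNAs called in either direction. Their log2 fold changes were -0.59 for miR-22-3p (adjusted p = 0.0116), -0.87 for miR-221-3p (adjusted p = 7.47e-09), -0.51 for miR-23a-3p and -0.89 for miR-100-5p (adjusted p = 3.37e-10). The remaining one, miR-32-5p, was at -0.76 (adjusted p = 0.0608). Without knockdown replicates 1 and 2, the libraries farthest from the median of miR-425-5p, r over the 4 that remained was between 0.933 and 0.978, and that of miR-191-5p with miR-425-5p was 0.978 over the same 4. Over all 6 libraries, the r of miR-191-5p with miR-425-5p was -0.21 (Spearman's rho 0.09). It was -0.94 without 231 EV replicate 3 and knockdown replicate 3, so it rested on which libraries were kept.

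Marker lists of cell types also differed between the groups, not all in the same libraries. The lists were chosen with earlier results of these data known, so the counts of markers called are a description only. Over all 517 miRNAs, 8.51% were called with TMM and 13.7% with library totals, in either direction. The 4 MDA-MB-231 markers, of which miR-221-3p and miR-100-5p were also among those most like miR-425-5p, summed to between 334900 and 363408 TPM in 231 EV and between 149839 and 233203 TPM in 231/ACO1 KD EV, and all 4 were lower by edgeR (miR-222-3p did not pass with library totals, adjusted p = 0.538). The 4 leukocyte and platelet markers summed to between 8200 and 9660 TPM against between 13431 and 15171 TPM, and 2 of the 4, miR-150-5p and miR-223-3p, were higher with TMM and all 4 with library totals. These sums were above those of 231 EV in all 3 knockdown libraries, whereas miR-122-5p was lowest in knockdown replicate 3. The 4 red cell markers summed to between 2503 and 2676 TPM against between 1597 and 2123 TPM, with miR-451a and miR-486-5p lower, and the liver marker miR-122-5p to between 1094 and 1324 TPM against between 985 and 1887 TPM. Of the 6 epithelial markers, 1 was lower, miR-205-5p (log2 fold change -0.93, adjusted p = 0.00749, edgeR), which did not pass with library totals (-0.59, adjusted p = 0.122), and miR-200c-3p was at 0.51 (adjusted p = 0.754). No marker was at 0 in all libraries. The part of these shifts in the lower miR-425-5p was not tested, and in bulk vesicle RNA fewer vesicles of a source and less of a miRNA per vesicle cannot be told apart.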

How the data were processed

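The authors sequenced small RNA libraries (NEBNext kit) of vesicles (231 EV and 231/ACO1 KD EV, 3 libraries each), trimmed the reads and kept those of miRNA size. Reads of other RNA classes were removed with Rfam, and miRNAs were identified against miRBase or predicted. The submitters' processing notes list Bowtie2, StringTie and hg38, and versions are not given in the sources used here. The deposited table held whole-number counts of 782 miRBase-named and 50 predicted miRNAs, and the deposited TPM, which was recomputed as each count's share of the library's counts and departed from it by at most 4.99e-05.

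Counts were fitted with edgeR 4.0.16 (R 4.3.3, quasi-likelihood, TMM) over all 517 miRNAs detected in 3 or more libraries, with Benjamini-Hochberg adjustment and a threshold of 0.05. The study used DESeq2, which here (1.42.0) was an alternative, as were other scalings, filters, limma 3.58.1 on log2(TPM + 1), a replicate block and leaving out each library. Fits were tested on simulated data. The biological coefficient of variation was 20.8%. The prior degrees of freedom were infinite, so the edgeR SEs and p-values used a spread pooled over miRNAs, not that of each miRNA. Ratios were log2 ratios of counts within a library, with 0.5 added to both, compared by exact two-sided permutation (scipy 1.17.1).

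Named miRNAs were the 4 members, the called and the 2 most abundant of 12 reference miRNAs, the extreme pairs of 10 from other clusters, rank neighbours, the 5 most alike to each 5p arm, and the marker lists. Members and lists were chosen with earlier results of these data known. A chi-square test over miRNAs found differences beyond counting error in every pair of same-group libraries, so none was treated as a repeat deposit. This does not show that they were separate cultures.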

Additional observations from a re-analysis of the deposited data

How the results depend on the processing

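miR-425-5p stayed below 0 under all 17 alternatives and past the threshold in 16, the exception being limma on log2(TPM + 0.1), at -0.515 (adjusted p = 0.0509). The adjusted p over these ranged from 6.63e-10 to 0.0509. Leaving out each library in turn gave log2 fold changes from -1.14 to -0.643 for miR-425-5p, from -0.147 to 0.0609 for miR-191-5p, from -0.258 to -0.0273 for miR-425-3p and from -0.223 to 0.59 for miR-191-3p, and none of the last 3 passed the threshold under any alternative. miR-191-5p changed sign to 0.288 with library totals, 0.0375 with median centring and 0.27 with limma at each pseudocount (1, 0.1 and 10). miR-425-3p changed sign to 0.174 with library totals and to 0.166, 0.167 and 0.162 with limma at pseudocounts 1, 0.1 and 10. The cluster's share of the library changed from 0.162 to -0.333 percentage points without miR-21-5p in the total, and ranged from 0.0874 to 0.273 with a library left out.

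The number of miRNAs called, 44, was 71 with library totals (13 lower and 58 higher), 75 and 76 with limma at pseudocounts 1 and 10, and between 19 (without 231 EV replicate 3) and 65 (without knockdown replicate 3) with 1 library left out. Leaving out 231 EV replicate 1 gave 21 and replicate 2 gave 29, with fewer libraries fitted. The miR-191-5p to miR-425-5p difference ranged from 0.554 to 1.2 and the miR-425 arm difference from -0.944 to -0.446 when a library was left out. The miR-191 arm difference, 0.0736, ranged from -0.611 (without knockdown replicate 2) to 0.576 (without knockdown replicate 3), and was -0.0257 with 1 added to both counts.

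Replicate numbers were not treated as pairs in the main fit. Deviations of same-numbered libraries correlated at 0.113, 0.117 and 0.000454, and those of libraries with different numbers at between -0.166 and 0.0488. With 3 libraries per group, these values cannot settle whether the numbers mark a shared batch. With the replicate block, miR-425-5p was at -0.865, miR-191-3p changed sign to -0.0781, 44 miRNAs were called, and the mean ratio differences were the same by construction. Depth limits the 3p arms most: 3 counts were worth between 13.0 and 44.2 TPM, and miR-191-3p had 1 count in the shallowest library. The cause of these changes was not tested.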
